A study of Mus musculus with 8 samples.

Results

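Mouse embryonic stem cells (ESCs) are an epithelium-like cell type, and 60 genes that build their cell-cell contacts, or are relatives of such genes, were examined here: the cadherins named Cdh with a number, the claudins, the junctional adhesion molecules (F11r, Jam2, Jam3), occludin (Ocln), zonula occludens scaffolds such as Tjp1 and Tjp3, the nectins (Pvrl1 to Pvrl4 on the array, now Nectin1 to Nectin4) and Epcam. They were chosen by name alone from the 30175 gene names on a whole-genome expression array, and 82 of its 39429 probes read them. RNA came from E14 ESCs, a line derived from an early mouse embryo and grown without feeder cells in medium with LIF, collected 72 hours after infection with lentiviruses carrying a short hairpin RNA. The 4 groups were control KD (knockdown; a hairpin against GFP), Tip60 KD, Hdac6 KD and double KD (both genes), each with replicates A and B. Tip60, encoded by Kat5, is an acetyltransferase of histones and other proteins, and Hdac6 is a deacetylase with many cytoplasmic substrates. Every group, the control included, was infected, and per the study's methods 1 hairpin was used for each gene, so effects of a hairpin on other transcripts cannot be told apart from those of its target. The study's methods call A and B biological replicates, without saying whether they were separate infections, and p-values measure the spread between them.

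Classical cadherins hold neighbouring cells together at adherens junctions: their outer domains bind the same cadherin on the next cell, and their tails bind catenins that reach the actin cytoskeleton. E-cadherin, encoded by Cdh1, is the main cadherin of ESC colonies, and an exchange of Cdh1 for N-cadherin, encoded by Cdh2, is a classical mark of epithelial-mesenchymal transition and of gastrulation. At tight junctions, claudins and occludin seal the space between cells, with zonula occludens (ZO) scaffolds beneath the membrane, and nectins and junctional adhesion molecules start contacts that the other proteins then strengthen.

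Values are given as the log2 of a probe's signal over the 75th percentile of its array, and each difference is a log2 change between group means with the standard error (SE) of the fit. A gene counted as called at an adjusted p under 0.1 (limma, all 8 arrays in one fit, Benjamini-Hochberg over all genes). Levels of different genes are not compared, since each probe has its own brightness. In these bulk samples, fewer cells with a transcript and less of it in each cell cannot be told apart.

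The knockdowns were visible in the targeted transcripts. Kat5 differed from control KD by -1.35 ± 0.11 (SE) after Tip60 KD, 0.17 ± 0.11 after Hdac6 KD and -1.31 ± 0.11 after double KD. Hdac6 differed by -0.44 ± 0.07, -2.49 ± 0.07 and -1.87 ± 0.07 in the same order, so it was also lower after Tip60 KD (adjusted p = 0.00621). The arrays differed in background: the software marked between 21896 and 40609 of 43020 spots as well above it, fewest on control KD B. Within each replicate letter, control KD had the fewest such spots and the highest background. The median background subtracted was 61.0 on control KD A, beside 37.2 to 39.4 on the other A arrays. It was 114 on control KD B, beside 41.4 to 89.0 on the other B arrays. A common floor, -2.71 on the log2 scale, was therefore set. For dim genes, this difference in background cannot be told apart from an effect of the knockdowns. The ESC marker list passed the filter with 12 of its 12 genes. It had 4, 3 and 5 genes called in the Tip60, Hdac6 and double KDs, of which 4, 3 and 4 were higher. These are 33.3%, 25% and 41.7% of the list, beside 39.8%, 28.9% and 32.8% of all genes. Pou5f1, the gene of Oct4, rose by 1.01, 0.47 and 0.63 (adjusted p = 0.00276, 0.0453 and 0.0171). Sox2 was called lower after double KD, by -0.35 (adjusted p = 0.0711). With the replicate letter as a block in the fit, 8, 5 and 9 were called, 5, 3 and 8 of them higher (60.9%, 53.0% and 55.5% of all genes were called). The list's summed signal, carried by bright probes such as that of Dppa5a, lay between 391 and 441 times the percentile on every array, with 2 values missing on Tip60 KD A.

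Of the 60 adhesion genes, 32 passed the filter on low signal and were tested. The other 28 did not rise above the floor on 2 arrays: 26 lay at it on all 8, among them Cldn1, Cldn2, Cdh5, Cdh6 and Cdh9, and Cdh7 and Cdh11 lay at it on 7 with a missing value for Cdh7 and a value of -2.65 for Cdh11 on the remaining array. Those tested were 4 of 5 type I cadherins, 3 of 13 type II cadherins, 2 of 5 other cadherins, 12 of 25 claudins, all 4 other tight junction membrane proteins, the scaffolds, 3 of 4 nectins and Epcam. All but 2 of the untested genes (Cdh24 and Cldn1) were marked well above background on at least 1 array, so a value at the floor does not show that a gene was silent. A gene could pass through 1 group alone, so counts below are of tested genes, never of the whole list.

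After Tip60 KD, 15 of the 32 tested adhesion genes were called, 6 higher (Cdh2, Jam2 and Nectin1 among them) and 9 lower (Cdh3, Cldn3, Cldn6, Cldn7, Cldn12, Ocln, Tjp1, Tjp3, Epcam). Over all 18034 genes tested, 39.8% were called in this comparison, 19.7% higher and 20.1% lower. After Hdac6 KD, 11 were called, 6 higher (Cdh1, Cdh2 and Nectin1 among them) and 5 lower (Cdh26, Cldn7, Jam3, Tjp3, Nectin2), against 28.9% of all genes, 14.0% higher and 14.9% lower. After double KD, 13 were called, 7 higher (Cdh2, Jam2 and Nectin1 among them) and 6 lower (Cldn3, Cldn6, Cldn7, Tjp3, Nectin2, Epcam), against 32.8% of all genes, 15.9% higher and 16.9% lower. As shares of the tested members these counts are 46.9%, 34.4% and 40.6%, near those of all genes. The median change of the tested members was 0.03 after Tip60 KD, 0.10 after Hdac6 KD and 0.07 after double KD, beside 0.06, 0.03 and 0.05 over all genes. The 3 comparisons share the control KD arrays. Each called member changed in the same direction on both slides, each of which held 1 array of every group. The calls were made from these same arrays, so this agreement is not separate support for them. With the slide, which is also the replicate letter, as a block, 23 members were called after Tip60 KD (60.9% of all genes), 19 after Hdac6 KD (53.0%) and 19 after double KD (55.5%), and no call was lost. The block left the change of each member as it was, so the kept calls are not a separate test. The Hdac6 KD count fell to 7 without control KD A, control KD B or Hdac6 KD A, and to 4 without Hdac6 KD B.

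**Figure D1:**
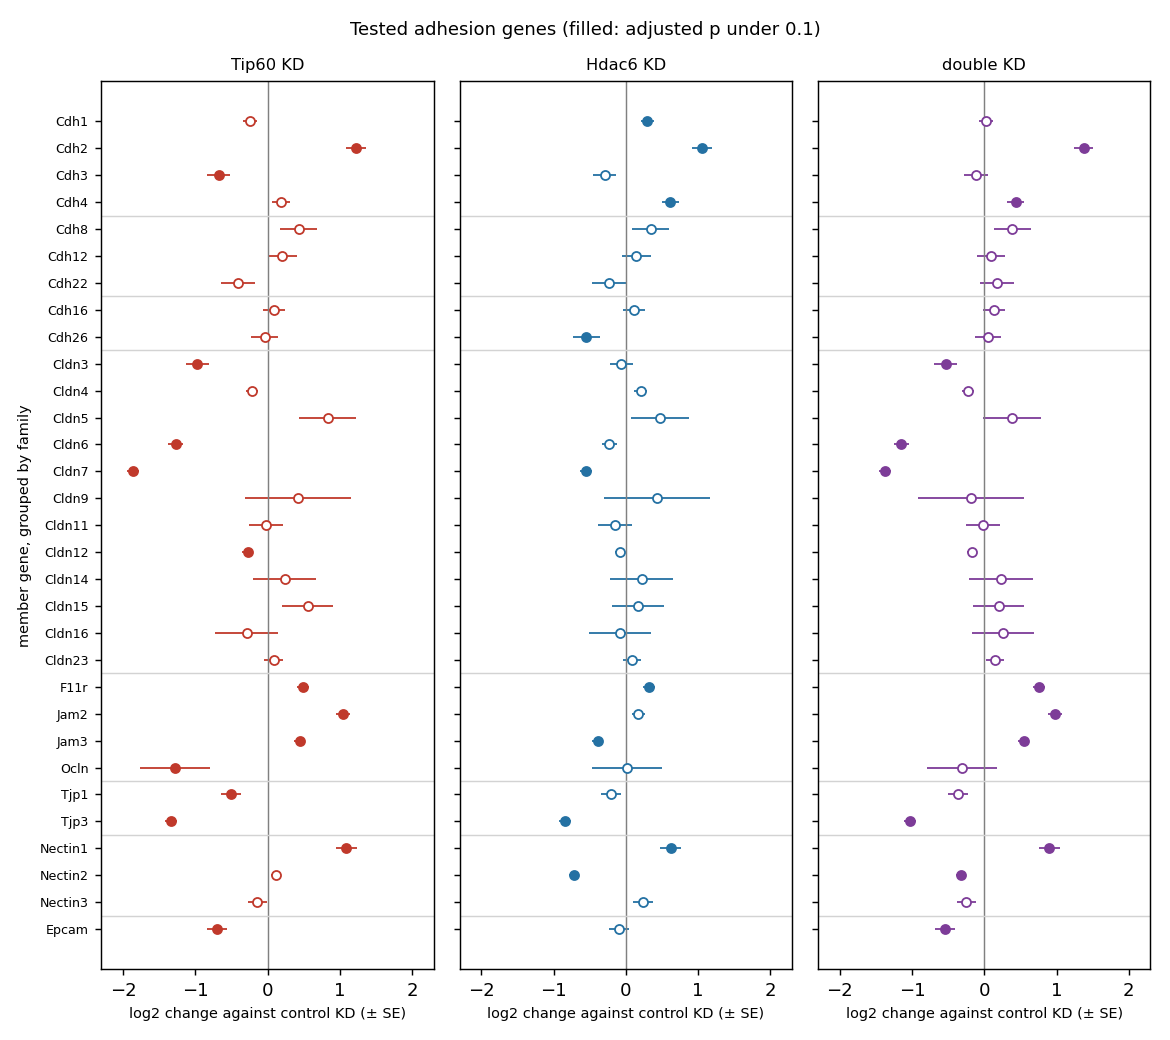
Log2 change against control KD of 31 tested adhesion genes, with the SE of the fit as bars, after Tip60 KD (left), Hdac6 KD (middle) and double KD (right); filled points have an adjusted p under 0.1 and grey lines part the families. Cldn7 lies farthest to the left after Tip60 KD, at -1.87, and Cdh2 lies at 1.05 or more to the right in all 3 panels.

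Of 12 tested claudins, 4 fell after Tip60 KD, 1 after Hdac6 KD and 3 after double KD, and none was called higher (limma; at an unadjusted p under 0.05 the counts were 5, 1 and 4 in either direction). These are 33.3%, 8.33% and 25% of the tested claudins, below the 39.8%, 28.9% and 32.8% of all genes. The absence of higher claudins depended on the fit: with the replicate block 8 were called after Tip60 KD (3 higher, 5 lower), 5 after Hdac6 KD (3 higher, 2 lower) and 6 after double KD (1 higher, 5 lower). The largest change belonged to Cldn7, a claudin of many epithelia. Its log2 values were 1.76 and 1.80 on the control KD arrays, -0.11 and -0.06 after Tip60 KD, 1.17 and 1.28 after Hdac6 KD, and 0.35 and 0.46 after double KD. No 2 groups overlapped, and they ran from control KD through Hdac6 KD and double KD down to Tip60 KD. Against control KD, Cldn7 changed by -1.87 ± 0.08 after Tip60 KD (27.4% of the control level, adjusted p = 0.000506), by -0.55 ± 0.08 after Hdac6 KD (adjusted p = 0.00924) and by -1.38 ± 0.08 after double KD (adjusted p = 0.00112). Its probe lies on chromosome 11 (mm9, chr11:69781255-69781314), and a second Cldn7 probe did not pass the filter.

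Cldn6, a claudin of early embryonic epithelium, had log2 values of 1.14 and 1.03 in control KD, -0.19 and -0.19 after Tip60 KD, 0.74 and 0.97 after Hdac6 KD, and -0.14 and 0.01 after double KD. The Tip60 KD and double KD arrays lay below all of the others. The changes were -1.27 ± 0.11 after Tip60 KD (adjusted p = 0.00112), -0.23 ± 0.11 after Hdac6 KD (adjusted p = 0.2, and 0.0967 with the block) and -1.15 ± 0.11 after double KD (adjusted p = 0.0023), at chr17:23819027-23819086 (mm9). Cldn9, whose probe lies close by on the same chromosome, was not called in any comparison with control KD, with a large spread between its replicates (SE 0.73).

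Cldn3, which seals simple epithelia, read 0.31 and 0.24 in control KD, -0.59 and -0.80 after Tip60 KD, 0.35 and 0.07 after Hdac6 KD, and -0.08 and -0.44 after double KD. Only Hdac6 KD overlapped control KD. It changed by -0.97 ± 0.16 after Tip60 KD (adjusted p = 0.00714), -0.06 after Hdac6 KD and -0.53 ± 0.16 after double KD (adjusted p = 0.0618); the double KD call was lost without control KD A, control KD B or double KD B (adjusted p = 0.212, 0.161 and 0.231). Cldn12 was lower by a small amount after Tip60 KD, -0.27 ± 0.07 (adjusted p = 0.0327), a call lost without control KD B or Tip60 KD A. The other 8 tested claudins were not called against control KD without the block, and their changes lay between -0.29 (Cldn16) and 0.83 (Cldn5) after Tip60 KD. With the block, Cldn5, Cldn14 and Cldn15 were called higher after Tip60 KD (adjusted p = 0.0131, 0.0382 and 0.0244, against 0.176, 0.745 and 0.314 without it) and Cldn4 lower (adjusted p = 0.0593, against 0.114). Cldn4 also had a dimmer passing probe, which was lower after Tip60 KD by -0.55 (adjusted p = 0.00405 in a fit over all probes), beside -0.22 (adjusted p = 0.111 there) for the probe that stands for the gene.

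**Figure D2:**
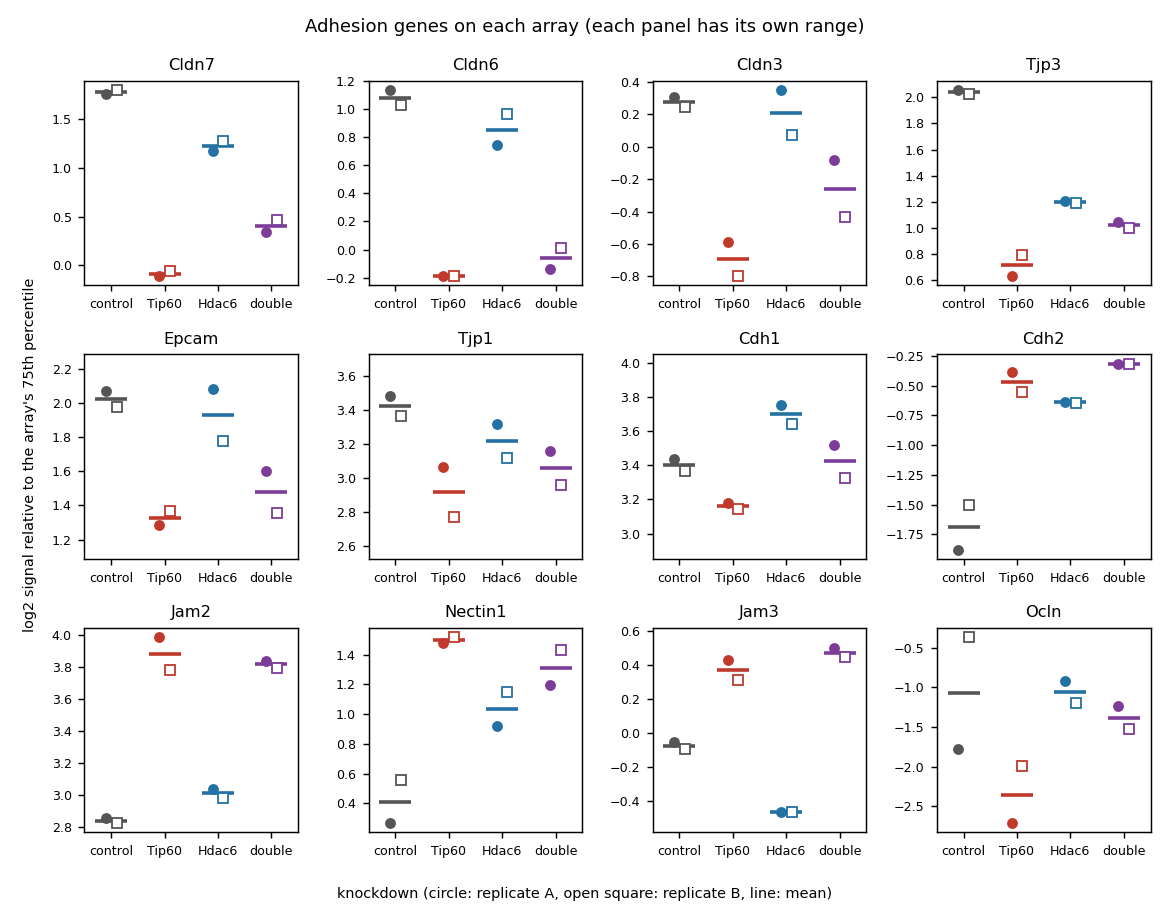
Log2 signal of 12 adhesion genes on each array, by knockdown; circles are replicate A, open squares replicate B, lines the group mean, and each panel has its own range. In the top row the Tip60 KD arrays sit lowest in all 4 panels, while for Cdh2 all 6 knockdown arrays sit above both control KD arrays.

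Of the proteins under the tight junction membrane, Tjp3 fell in every knockdown. Tjp3 (ZO-3), found mainly in epithelia, read 2.05 and 2.02 in control KD, 0.63 and 0.79 after Tip60 KD, 1.21 and 1.19 after Hdac6 KD, and 1.04 and 0.99 after double KD. All 6 knockdown arrays were below both control KD arrays. The changes were -1.33 ± 0.08 (adjusted p = 0.000678), -0.84 ± 0.08 (adjusted p = 0.00333) and -1.02 ± 0.08 (adjusted p = 0.00179) in the Tip60, Hdac6 and double KDs. Tjp1 (ZO-1), the scaffold shared by most cell-cell contacts, read 3.48 and 3.36 in control KD, 3.06 and 2.77 after Tip60 KD, 3.32 and 3.12 after Hdac6 KD, and 3.16 and 2.96 after double KD. Only its change after Tip60 KD was called, -0.50 ± 0.14 (adjusted p = 0.0408), and not without control KD A or Tip60 KD B (adjusted p = 0.169 and 0.168). With the block, its changes of -0.20 after Hdac6 KD and -0.36 after double KD were called as well (adjusted p = 0.0479 and 0.00665).

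Of the other membrane proteins, the junctional adhesion molecules were mostly higher. Jam2, an immunoglobulin-like adhesion receptor, read 2.86 and 2.83 in control KD, 3.99 and 3.78 after Tip60 KD, 3.04 and 2.98 after Hdac6 KD, and 3.84 and 3.80 after double KD on its brightest probe. It rose by 1.04 ± 0.09 after Tip60 KD (adjusted p = 0.00126) and 0.98 ± 0.09 after double KD (adjusted p = 0.0024), while after Hdac6 KD the difference was 0.17 ± 0.09 (adjusted p = 0.266, and 0.0873 with the block). F11r (JAM-A), its relative at epithelial tight junctions, rose by 0.49 ± 0.09 after Tip60 KD, 0.32 ± 0.09 after Hdac6 KD and 0.75 ± 0.09 after double KD (adjusted p = 0.00866, 0.0484 and 0.00366); the Hdac6 KD call was lost without any 1 of the control KD or Hdac6 KD arrays. Jam3 was called in opposite directions by the single knockdowns, 0.44 ± 0.08 after Tip60 KD (adjusted p = 0.00845) and -0.39 ± 0.08 after Hdac6 KD (adjusted p = 0.0205), and it rose by 0.55 ± 0.08 after double KD (adjusted p = 0.00657). Its Hdac6 KD call was at adjusted p = 0.101 without Hdac6 KD B. Ocln, a membrane protein of tight junctions, is less certain. Its 2 control KD arrays read -1.78 and -0.37 and its Tip60 KD arrays -2.71 (the floor) and -2.00. The change of -1.28 ± 0.48 was called only just (adjusted p = 0.0979). The call was lost when any 1 array was left out except control KD A. After Hdac6 KD Ocln read -0.92 and -1.20 and after double KD -1.24 and -1.53, both inside the range of the control KD arrays.

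Among the cadherins, Cdh2 rose in every knockdown. Cdh2 (N-cadherin) read -1.88 and -1.50 in control KD, -0.39 and -0.55 after Tip60 KD, -0.63 and -0.65 after Hdac6 KD, and -0.32 and -0.32 after double KD. All 6 knockdown arrays lay above both control KD arrays. The rise was 1.22 ± 0.14 after Tip60 KD (2.33-fold, adjusted p = 0.00217), 1.05 ± 0.14 after Hdac6 KD (2.07-fold, adjusted p = 0.0064) and 1.37 ± 0.14 after double KD (2.59-fold, adjusted p = 0.00276). A second Cdh2 probe gave 1.29, 1.18 and 1.41. Both probes were dim in control KD, the second at -2.34 and -2.56. Over the alternative settings the rise of Cdh2 ranged from 0.90 to 1.41, 0.75 to 1.24 and 1.06 to 1.56 in the same order. The part of the higher control KD background in these rises was not tested.

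For Cdh1 (E-cadherin), whether a change was called after Tip60 KD depended on the fit. It read 3.44 and 3.37 in control KD, 3.18 and 3.15 after Tip60 KD, 3.76 and 3.64 after Hdac6 KD, and 3.52 and 3.33 after double KD, at chr8:109193812-109193871 (mm9). Both Tip60 KD arrays lay below all of the others. Against control KD the change was -0.24 ± 0.09 after Tip60 KD (adjusted p = 0.11), 0.30 ± 0.09 after Hdac6 KD (adjusted p = 0.0782) and 0.02 ± 0.09 after double KD (adjusted p = 0.905). On slides A and B the Tip60 KD arrays lay -0.26 and -0.22 from control KD, and with the block that change was called lower (-0.24 ± 0.06, adjusted p = 0.0212). The Hdac6 KD call was lost when any 1 array of control KD, Hdac6 KD or Tip60 KD was left out. Cdh1 was lower after Tip60 KD than after Hdac6 KD by a difference that was called directly, -0.54 ± 0.09 (adjusted p = 0.0168, and 0.1 without Hdac6 KD A). Cdh3 (P-cadherin), the neighbour of Cdh1 on chromosome 8, fell by 0.68 ± 0.16 on the log2 scale after Tip60 KD (adjusted p = 0.0244; not called without control KD A or Tip60 KD B) and was not called after Hdac6 KD or double KD, at -0.29 (adjusted p = 0.0368 with the block) and -0.11. Cdh4 (R-cadherin) was at the floor on both control KD arrays and called higher by 0.62 ± 0.12 after Hdac6 KD and by 0.44 ± 0.12 with both hairpins (adjusted p = 0.0192 and 0.0474). The sizes depend on where the floor lies, the first call was lost without Hdac6 KD B and the second without control KD A, control KD B or double KD B. Cdh26 was called lower after Hdac6 KD, at -0.55 ± 0.18 (adjusted p = 0.0928), a call lost without any 1 of the control KD, Hdac6 KD or double KD arrays. None of the 3 tested type II cadherins was called in any of the knockdowns (limma, and 0 at an unadjusted p under 0.05), while with the block Cdh8 and Cdh12 were called higher after Tip60 KD (adjusted p = 0.0652 and 0.0573) and Cdh8 after double KD (adjusted p = 0.0937).

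Epcam, a homophilic adhesion molecule that also binds claudins and is much used to mark epithelial and pluripotent cells, read 2.07 and 1.98 in control KD, 1.29 and 1.37 after Tip60 KD, 2.09 and 1.78 after Hdac6 KD, and 1.60 and 1.35 after double KD. The Tip60 KD and double KD arrays lay below control KD, and Hdac6 KD overlapped it. The changes were -0.70 ± 0.14 (adjusted p = 0.0129), -0.09 ± 0.14 (adjusted p = 0.715) and -0.55 ± 0.14 (adjusted p = 0.0369), the last lost without control KD A, control KD B or double KD B.

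Among the nectins, which start adherens junctions, Nectin1 read 0.27 and 0.56 in control KD, 1.48 and 1.52 after Tip60 KD, 0.92 and 1.15 after Hdac6 KD, and 1.20 and 1.43 after double KD. All 6 knockdown arrays lay above control KD, and the changes were 1.09 ± 0.14 (adjusted p = 0.00357), 0.62 ± 0.14 (adjusted p = 0.0324) and 0.90 ± 0.14 (adjusted p = 0.00931). The Hdac6 KD call was lost without control KD A or Hdac6 KD B (adjusted p = 0.137 and 0.16). Nectin3 was not called, with changes between -0.25 and 0.24, but with the block it was higher after Hdac6 KD and lower after double KD (adjusted p = 0.025 and 0.0196).

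The probes of Nectin2 read in opposite directions. Its brighter probe, chr7:20309866-20309924 (mm9), read 1.82 and 1.87 in control KD, 1.98 and 1.95 after Tip60 KD, 1.10 and 1.15 after Hdac6 KD, and 1.50 and 1.54 after double KD. The other, 7848 bases away and listed under another RefSeq transcript of the gene, read 1.16 and 1.15, then 1.33 and 1.27, then 1.88 and 1.77, then 1.76 and 1.74. After Hdac6 KD the first was therefore lower by -0.72 (adjusted p = 0.00308 in a fit over all probes) and the second higher by 0.67 (adjusted p = 0.00425), and after double KD the changes were -0.33 (adjusted p = 0.0228) and 0.59 (adjusted p = 0.00481). After Tip60 KD the probes differed from control KD by 0.12 and 0.14, neither called. The call on Nectin2 as a gene thus holds for 1 probe, and whether the probes read different transcripts was not tested.

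Jam2 was read by 3 probes, which also differed. After Tip60 KD all 3 were higher, by 1.04, 0.46 and 2.15 for the brightest probe, one 5392 bases to its left and one 8394 bases to its right, and after double KD by 0.98, 0.69 and 1.88. After Hdac6 KD the left-hand probe, listed under another transcript accession, fell by 1.14 (adjusted p = 0.00935), the right-hand probe rose by 1.40 (adjusted p = 0.00173) and the brightest was not called. The rise of Jam2 after Tip60 KD and double KD was thus seen on every probe, and no single direction describes Jam2 after Hdac6 KD.

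**Figure D3:**
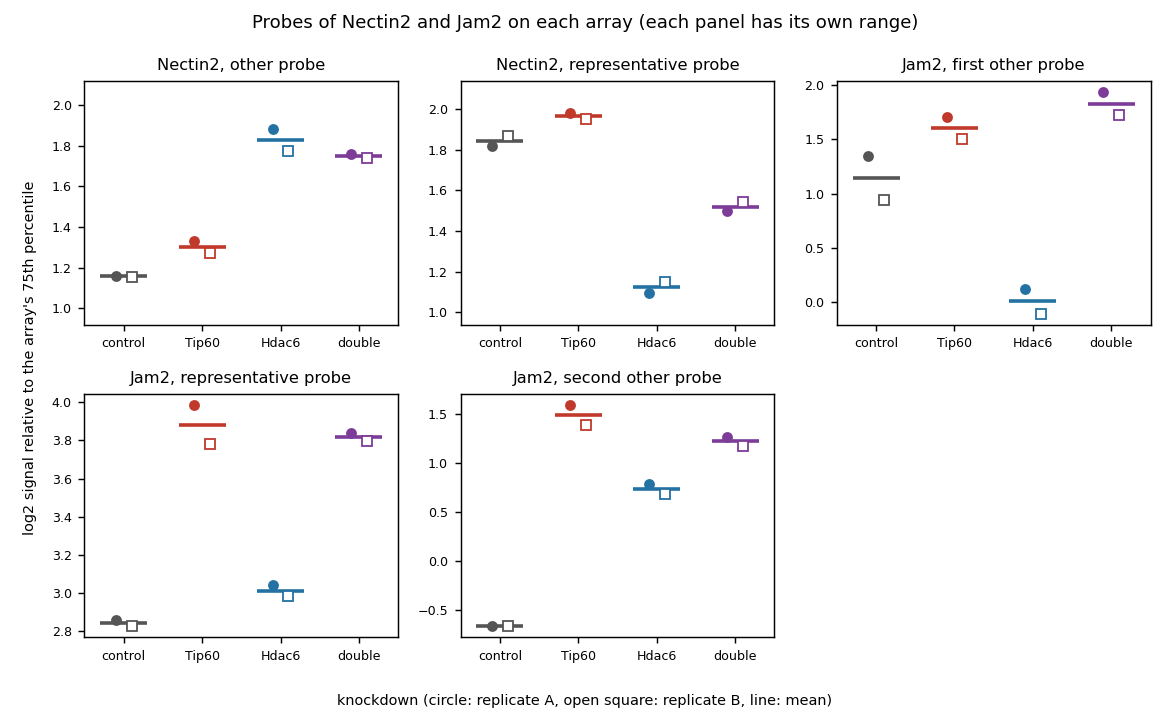
Log2 signal on each array of the 2 Nectin2 probes and the 3 Jam2 probes, ordered by position; circles are replicate A, open squares replicate B, lines the group mean, and each panel has its own range. The Hdac6 KD arrays are the highest for one Nectin2 probe and the lowest for the other.

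The knockdowns were also set against each other directly. Between Tip60 KD and Hdac6 KD, 12 adhesion genes were called (23.5% of all genes), 8 lower after Tip60 KD (Cdh1, Cdh4, Cldn3, Cldn4, Cldn6, Cldn7, Tjp3, Epcam) and 4 higher (Jam2, Jam3, Nectin1, and Nectin2 on its brighter probe). The differences for Cldn7, Cldn6 and Cldn3 were -1.31 ± 0.08, -1.04 ± 0.11 and -0.90 ± 0.16 (adjusted p = 0.00196, 0.00439 and 0.0173), and those for Jam2 and Jam3 0.87 ± 0.09 and 0.83 ± 0.08 (adjusted p = 0.0048 and 0.00362). The count was 7 without Hdac6 KD A. Between double KD and Tip60 KD, 2 were called (3.70% of all genes): Cldn7 was higher after double KD by 0.49 ± 0.08 (adjusted p = 0.0741) and Nectin2 lower by -0.45 ± 0.07 (adjusted p = 0.0693), and neither was called once any 1 of the 8 arrays was left out. The other Nectin2 probe went the opposite way in both comparisons, at -0.53 for Tip60 KD against Hdac6 KD and 0.45 for double KD against Tip60 KD (adjusted p = 0.00944 and 0.0651 in the fit over all probes). With the replicate block 10 were called in that comparison (26.2% of all genes). Between double KD and Hdac6 KD, 7 were called (10.1% of all genes), Cldn4, Cldn6 and Cldn7 lower after double KD and F11r, Jam2, Jam3 and Nectin2 higher (Nectin2 on its brighter probe; the other differed by -0.08 and was not called), with 14 under the block (29.4% of all genes). That count fell to 3 without Hdac6 KD A, 2 without Hdac6 KD B, and 4 without double KD A or double KD B. For Cldn6 the difference of double KD from Tip60 KD was 0.12 ± 0.11 and from Hdac6 KD -0.92 ± 0.11 (adjusted p = 0.678 and 0.0154); for Jam3 the difference of double KD from Hdac6 KD was 0.93 ± 0.08 (adjusted p = 0.00678).

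Promoter sequence is shown for 5 genes that were called lower after Tip60 KD and for F11r, which was called higher, because E-boxes of the form CAGGTG or CACCTG (the same site read on either strand) are the sites that repressors of the Snail and Zeb families bind in epithelial genes. Each printed window holds such a site. The lower genes Cldn12 and Tjp1, whose windows hold none, are not printed. The windows, credited to RefSeq on build GRCm38.p6, run from 250 bases before to 50 after a gene's start, and capitals mark every CANNTG.
Cldn7: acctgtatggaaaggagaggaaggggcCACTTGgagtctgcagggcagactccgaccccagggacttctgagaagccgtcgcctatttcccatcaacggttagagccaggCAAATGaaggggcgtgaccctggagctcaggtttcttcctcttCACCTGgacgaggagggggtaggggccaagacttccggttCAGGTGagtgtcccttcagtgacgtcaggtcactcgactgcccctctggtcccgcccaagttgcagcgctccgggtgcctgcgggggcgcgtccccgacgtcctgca
Cldn6: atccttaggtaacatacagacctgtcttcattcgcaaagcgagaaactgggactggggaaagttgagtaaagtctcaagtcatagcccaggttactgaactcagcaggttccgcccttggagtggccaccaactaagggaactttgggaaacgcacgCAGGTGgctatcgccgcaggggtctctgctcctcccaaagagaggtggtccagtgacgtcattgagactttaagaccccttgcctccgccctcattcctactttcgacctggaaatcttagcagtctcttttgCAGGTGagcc
Cldn3: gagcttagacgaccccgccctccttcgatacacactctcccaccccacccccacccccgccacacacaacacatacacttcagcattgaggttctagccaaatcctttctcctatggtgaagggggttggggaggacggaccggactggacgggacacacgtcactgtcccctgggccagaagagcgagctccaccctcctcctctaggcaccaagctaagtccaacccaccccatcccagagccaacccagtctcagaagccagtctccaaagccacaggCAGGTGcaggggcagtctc
Tjp3: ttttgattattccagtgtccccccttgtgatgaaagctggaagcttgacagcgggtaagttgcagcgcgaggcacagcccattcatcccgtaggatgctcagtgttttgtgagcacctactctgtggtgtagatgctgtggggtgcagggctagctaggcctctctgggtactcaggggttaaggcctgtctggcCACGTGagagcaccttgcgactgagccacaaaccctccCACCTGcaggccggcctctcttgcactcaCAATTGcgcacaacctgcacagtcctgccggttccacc
Epcam: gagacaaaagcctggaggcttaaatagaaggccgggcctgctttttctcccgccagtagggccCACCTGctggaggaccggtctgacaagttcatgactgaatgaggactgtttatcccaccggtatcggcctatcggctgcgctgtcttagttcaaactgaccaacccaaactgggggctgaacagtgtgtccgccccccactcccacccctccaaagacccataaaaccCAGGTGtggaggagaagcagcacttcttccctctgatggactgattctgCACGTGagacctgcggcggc
F11r: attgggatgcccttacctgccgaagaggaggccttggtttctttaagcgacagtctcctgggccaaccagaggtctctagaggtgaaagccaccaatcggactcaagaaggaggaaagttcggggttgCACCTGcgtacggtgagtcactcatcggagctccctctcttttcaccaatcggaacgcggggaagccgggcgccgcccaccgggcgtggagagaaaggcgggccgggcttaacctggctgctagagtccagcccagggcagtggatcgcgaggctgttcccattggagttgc
They lie at chr11:69965171-69965470 (plus strand), chr17:23679115-23679414 (plus), chr5:134985964-134986263 (plus), chr10:81291218-81291517 (minus), chr17:87635729-87636028 (plus) and chr1:171437311-171437610 (plus), in the order printed. The Cldn7 window has CACCTG 97 and CAGGTG 57 bases before the start, the Cldn6 window has CAGGTG 93 bases before and 40 after it, and the Epcam window has CACCTG 187 and CAGGTG 19 bases before it. Cldn7 and Tjp3 each have another listed start, and the other Cldn7 window holds no CANNTG.

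Of the 9 members called lower after Tip60 KD, 8 had a window in the table, and in 6 of them (Cldn3, Cldn6, Cldn7, Epcam, Ocln, Tjp3) at least 1 window held CAGGTG or CACCTG; Cldn12 and Tjp1 had none. F11r, called higher, had 1 window, which held 1. Over the 21 tested members with a window the share was 47.6%, and over all 27025 genes with a window it was 22.6%. By window, 72.3% of the 32851 promoters held some CANNTG. The median share of G and C was 52.7% over all promoters and 60.5% over those of tested members. These are matches of letters only. Of the 6 members called higher after Tip60 KD, 1 had a window, so the lower genes have almost no higher genes beside them. The 47.6% includes the lower genes. Other tested members with a window were not called after Tip60 KD without the block. Of these, Cldn4, Cldn14 and Nectin2 held CAGGTG or CACCTG. Cdh8, Cdh12, Cdh22, Cdh26, Cldn5, Cldn11, Cldn15, Cldn16 and Nectin3 did not. Cdh1, Cdh2, Jam2 and Nectin1 were among the members without one, and no pattern is read from the matches.

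Of the catenins and other linkers that tie cadherins to actin, 10 of 14 were tested, and 1 was called after Tip60 KD (Ctnnal1, an alpha-catenin relative, at -0.41 ± 0.13, adjusted p = 0.0609), none after Hdac6 KD (limma; 0 also at an unadjusted p under 0.05) and 1 after double KD (Lima1, at -0.29 ± 0.08, adjusted p = 0.0451). These are 10%, 0% and 10% of the tested linkers, beside 39.8%, 28.9% and 32.8% of all genes. Medians were 0.02, 0.13 and -0.01. Ctnnb1, Ctnna1 and Ctnnd1, the core of the cadherin complex, were thus not among the called genes. With the block 3, 4 and 4 of the 10 were called (60.9%, 53.0% and 55.5% of all genes). Among them were Ctnnd1 after Tip60 KD and double KD and Ctnna1 after double KD.

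Of 37 other tight junction and polarity components, 28 were tested. Of these, 15 were called after Tip60 KD (5 higher, 10 lower), 6 after Hdac6 KD (5 higher, 1 lower) and 8 after double KD (3 higher, 5 lower). These are 53.6%, 21.4% and 28.6% of those tested, beside 39.8%, 28.9% and 32.8% of all genes. Medians were -0.03, 0.09 and -0.07. With the block 20, 17 and 17 were called (60.9%, 53.0% and 55.5% of all genes). The largest changes were those of Marveld2 (tricellulin, of the corners where 3 cells meet), Crb3 (a Crumbs protein of the apical membrane), Cxadr (an adhesion receptor of the junction) and Mpdz (a multi-PDZ scaffold). Crb3 fell by 1.13 ± 0.18 and Cxadr by 0.99 ± 0.10 after Tip60 KD (adjusted p = 0.00582 and 0.00183), and by 0.62 ± 0.18 and 0.56 ± 0.10 after double KD (adjusted p = 0.0515 and 0.0139). Mpdz was at the floor on both control KD arrays. Relative to the floor it rose by 0.59, 0.87 and 0.47 in the Tip60, Hdac6 and double KDs (adjusted p = 0.00239, 0.00218 and 0.00714). Marveld2 was lower by -1.84 ± 0.51 and -1.67 ± 0.51 after Tip60 KD and double KD (adjusted p = 0.0401 and 0.0646), with control KD arrays that differed widely, at -1.74 and -0.01. Both Tip60 KD arrays were at the floor, so the size of that change depends on where the floor lies.

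Of 13 desmosome genes, 8 were tested, and 4, 4 and 3 were called in the Tip60, Hdac6 and double KDs (1 higher and 3 lower, 2 and 2, 1 and 2). These are 50%, 50% and 37.5% of those tested, beside 39.8%, 28.9% and 32.8% of all genes. Pkp2 (plakophilin 2) was lower in all 3, by -0.84, -0.32 and -0.86 (adjusted p = 0.00125, 0.0319 and 0.002). Dsc2 (desmocollin 2) read -2.02 and -1.83 in control KD and was at the floor on all 6 knockdown arrays. Perp was lower after Tip60 KD, at -0.60, and higher after Hdac6 KD, at 0.30 (adjusted p = 0.00284 and 0.0364), and Dsg2 (desmoglein 2) was higher after Hdac6 KD and double KD, at 0.72 and 0.47 (adjusted p = 0.0095 and 0.0283).

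Of 21 transcription and splicing regulators linked to epithelial or mesenchymal state, 17 were tested and 7, 5 and 3 were called (3 higher and 4 lower, 3 and 2, 2 and 1). These are 41.2%, 29.4% and 17.6% of those tested, beside 39.8%, 28.9% and 32.8% of all genes. With the block 8, 9 and 7 were called (60.9%, 53.0% and 55.5% of all genes). Snai1, the Snail repressor, was at the floor on both control KD arrays, read -1.65 and -1.73 after Tip60 KD, -2.69 and -2.71 after Hdac6 KD, and -1.82 and -1.90 after double KD, so it was called higher after Tip60 KD and double KD, by 1.02 ± 0.07 and 0.85 ± 0.07 (adjusted p = 0.000813 and 0.002) relative to the floor. Snai2, Zeb1 and Zeb2, of the Snail and Zeb families as well, were not called higher. Snai2 was called lower after Tip60 KD and Hdac6 KD, by -0.43 and -0.54 (adjusted p = 0.034 and 0.0241), Zeb1 was called lower after Hdac6 KD, by -0.50 (adjusted p = 0.0111), and Zeb2 was not called. Snai2 was dim: it read -2.02 and -2.26 in control KD and, close to the floor, -2.50 and -2.63 after Tip60 KD and -2.65 and -2.70 after Hdac6 KD. Esrp2, a splicing factor of epithelial cells, was dim in control KD, at -2.50 and -2.12. It was higher in all 3 knockdowns, by 0.71, 1.27 and 0.79 (adjusted p = 0.0119, 0.00414 and 0.0121). Esrp1, also in the list, was called lower after Tip60 KD, by -0.37 (adjusted p = 0.0822). Without the block Esrp1 was not called after Hdac6 KD or double KD, at 0.28 and -0.20. Grhl1, an epithelial grainyhead factor, fell after Tip60 KD and double KD by 0.64 and 0.46 (adjusted p = 0.00549 and 0.0227), and Ehf, an Ets factor of epithelia, rose after Tip60 KD by 0.80 (adjusted p = 0.0587). Grhl2 was called lower after Tip60 KD, by -0.37, and higher after Hdac6 KD, by 0.45 (adjusted p = 0.0745 and 0.0539).

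**Figure D4:**
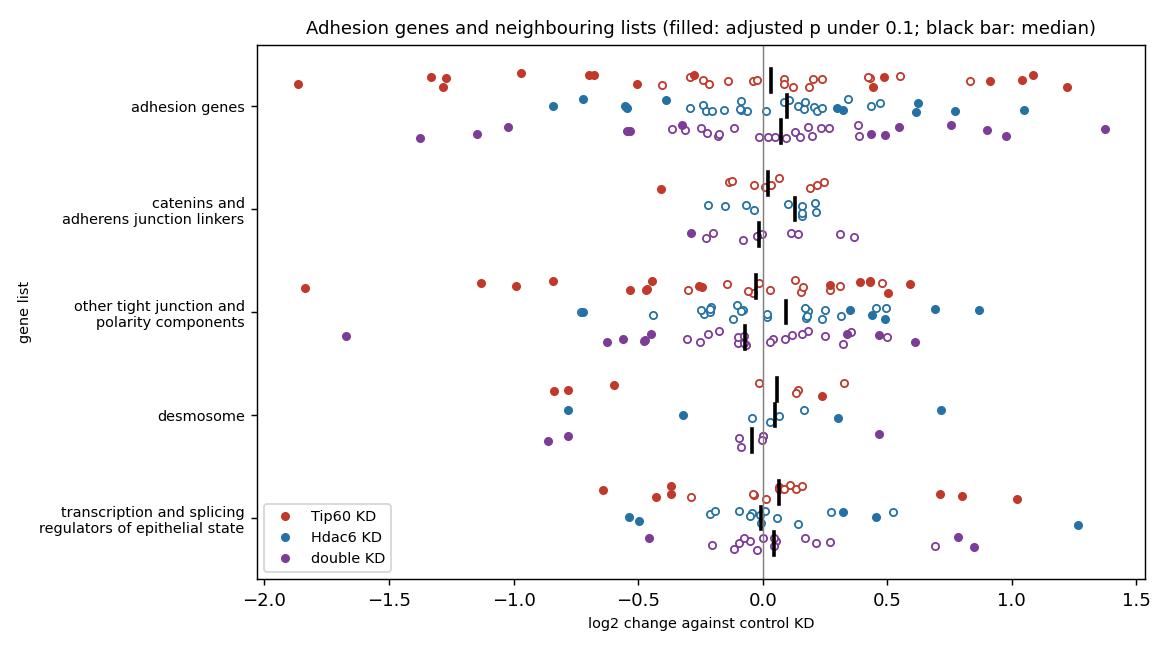
Log2 change against control KD of the tested adhesion genes and of 4 neighbouring gene lists; each point is a gene, filled at an adjusted p under 0.1, black bars are list medians, and the spread of points across a band has no meaning. Points lie on both sides of 0 in every list, and the medians lie between -0.07 and 0.13.

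Markers of other cell types also changed, in both directions within some lists, so each summed signal is given with its counts and its brightest changing gene. Over all genes, 39.8%, 28.9% and 32.8% were called in the Tip60, Hdac6 and double KDs (60.9%, 53.0% and 55.5% with the block). Of the tested markers, the shares were 37.5%, 12.5% and 37.5% for fibroblast or mesenchyme and 100%, 62.5% and 87.5% for trophectoderm. They were 16.7% in each knockdown for neural ectoderm, and 60%, 40% and 40% for extraembryonic endoderm. The fibroblast or mesenchyme list (8 of 12 tested; Col1a2, Dcn, Postn and Prrx1 did not pass the filter) had 3, 1 and 3 genes called in the Tip60, Hdac6 and double KDs, all higher. With the block the list had 5, 3 and 4 called, 1 of them lower, after Hdac6 KD. Its sum was 10.1 to 10.4 in control KD, 18.6 to 19.9 after Tip60 KD, 12.0 to 13.6 after Hdac6 KD and 18.5 to 20.9 after double KD, carried mostly by Vim (vimentin), which was higher by 1.06, 0.42 and 1.09 (adjusted p = 0.00265, 0.069 and 0.00392).

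The trophectoderm list (8 of 12; Cdx2, Elf5, Gata3 and Hand1 did not pass) moved in both directions: 8 were called after Tip60 KD (4 higher, 4 lower), 5 after Hdac6 KD (2 and 3) and 7 after double KD (3 and 4), with medians of 0.16, -0.24 and 0.07. Tead4 and Krt8 were higher by 1.32 and 1.28 after Tip60 KD (adjusted p = 0.000678 and 0.00383), Tead4 against control KD arrays at the floor, while Tfap2c was at -1.38 and Ascl2 at -1.12 (adjusted p = 0.00141 and 0.00567). The sum was 14.2 to 15.7 in control KD, 8.08 to 8.82 after Tip60 KD, 11.6 to 12.7 after Hdac6 KD and 8.80 to 9.74 after double KD, and follows Tfap2c, its brightest probe. In the neural ectoderm list (6 of 12) Tubb3 was the only gene called in each knockdown, higher by 1.96, 0.52 and 1.76 (adjusted p = 0.000749, 0.0431 and 0.00155), and Sox1, Pax6, Nes, Neurog2 and Zic1 were not; with the block 4, 2 and 3 of the 6 were called, all higher. Its sum was 2.59 to 2.94, 4.83 to 5.32, 3.14 to 3.56 and 4.47 to 4.88 in the same order. The extraembryonic endoderm list (5 of 12; Gata6, Sox7 and Foxa2 did not pass) had 3, 2 and 2 genes called, Col4a1 higher and Lamb1 lower in each, and its sum lay between 17.8 and 22.99 on every array. The part of such cells in the changes of the adhesion genes was not tested.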

How the data were processed

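Total RNA was measured on 1-colour (Cy3) Agilent arrays, 2 for each of 4 groups. The deposited scanner files hold fluorescence intensity; per the file headers, Feature Extraction (10.7.1.1) had corrected the processed signal for background and for a spatial trend, and arrays were not scaled to each other. The deposited table of the whole series holds log2 values, which ranked probes on each array as the median signal did (rho 1), with column medians of 8.19 to 8.20; its centring is not given in the sources used here.

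Spots marked as outliers, and 3 probe values below 0 despite a mark of good signal, were set to missing, and spots of a probe were averaged. Processed intensity over the array's 75th percentile was raised to a floor (0.153 of that percentile, the largest of the arrays' lowest signals well above background) and put on a log2 scale; 8.86% of values lay at the floor. Probes needed 2 arrays with a signal over both limits, and a gene was read by its probe of highest mean. RefSeq accessions gave current symbols. Probe positions are the files' own, on mm9. No spot was saturated, and the number of arrays limits the precision.

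All groups entered one limma 3.58.1 fit (R 4.3.3; 4 residual and 1.84 prior degrees of freedom), 2-sided, without a block. Replicate letters pair the arrays: each letter is 1 of 2 slides, and deviations from the group means correlated at 0.650 to 0.799 over the 6 pairs of groups. Position on the slide cannot be told apart from the group. In simulated data on 17866 genes for Tip60 KD against control KD, 132 of 200 genes given a log2 change of 1 were recovered, with 8 false calls. The simulated noise was independent between arrays, without a slide effect or a floor. Far fewer genes were changed than the 39.8% called in the real comparison. These numbers therefore do not measure the sensitivity or the rate of false calls in the real data. The members and gene lists were chosen with earlier results of these data known. Alternatives were normexp background correction (offset 50), quantile normalization, the deposited log2 table, no filter, a lower floor, missing values in place of the floor, the mean of a gene's probes, the replicate block, only the groups compared, and each array left out. Values by array were planned for members called with a log2 change of at least 0.8 in a knockdown and for Cdh1, Epcam, Tjp1 and Cldn6; of other lists, at most the 4 called genes of largest change, Kat5, Hdac6 and Snai1 were named. Values by array or by probe for Nectin2 and the other probes of Jam2, the second Cldn4 probe, members called with the block alone, and the naming of Snai2, Zeb1, Zeb2, Esrp1, Grhl2, the core catenins, the cell type markers and Pou5f1, were chosen after their values were seen. 1 tested member is counted in all totals but is not reported here by name.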

Additional observations from a re-analysis of the deposited data

How the results depend on the processing

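The counts of called adhesion genes in the 3 knockdowns against control KD stayed within 1.5 times under normexp, quantile normalization, the deposited log2 table, no filter, the lower floor, missing values, the mean of probes and the fit on the compared groups. With the replicate block they were 23 in Tip60 KD and 19 in Hdac6 KD; in double KD against Tip60 KD the block gave 10, and in double KD against Hdac6 KD 14. The block lost no call of a single member. Double KD against Tip60 KD, with 2 calls, gave 1 under normexp and the mean of probes, and 0 with the deposited table, the lower floor and the 2 groups alone (limma; 6, 5 and 5 at an unadjusted p under 0.05). Double KD against Hdac6 KD, with 7, gave 4 with the lower floor and 0 with the 2 groups alone (10 at an unadjusted p under 0.05). Leaving out 1 array gave 13 to 15 calls in Tip60 KD, 4 to 10 in Hdac6 KD, 9 to 13 in double KD, 7 to 12 for Tip60 KD against Hdac6 KD, 0 in each case for double KD against Tip60 KD (limma; 4 to 8 at an unadjusted p under 0.05) and 2 to 7 for double KD against Hdac6 KD. Fewer arrays or groups leave fewer degrees of freedom; other causes were not tested. Of 1018 values for 60 changes called in a single member, 849 kept the call, 167 lost it and 2 reversed. Both reversals were Nectin2 with the mean of its probes: 0.13 in double KD against control KD and 0.00047 in double KD against Tip60 KD. The lower floor, -6.89, moved the median change of all genes up by 0.18, 0.15 and 0.22 in the 3 comparisons with control KD. Background, highest on the control KD array of each slide, limits what can be said of dim genes and of the 28 untested members.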
